A study of Rattus norvegicus with 18 samples.

Results

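The enzymes described here are the muscle forms of 5 proteins of rapid energy supply, encoded by Ckm, Pygm, Pfkm, Pgam2 and Eno3. They were followed in the rat femur after fracture. Their members were taken as the probe sets whose platform annotation names 1 of these symbols alone, which gave 7 of 8740 probe sets and 5 of 4736 genes. For Pygm and Pfkm, each read by 2 probe sets, the one with the higher mean log2 signal led. RNA was measured on 18 Affymetrix rat genome microarrays, 1 for each of 3 ages at each of 6 times. Female Sprague-Dawley rats aged 6 weeks (young), 26 weeks (adult) or 52 weeks (older) were used. The left femur received a closed transverse mid-shaft fracture held by an intramedullary rod and was taken 3 days or 1, 2, 4 or 6 weeks later. The controls were sham rats of the same 3 ages with no fracture, taken at the time of surgery, so they were not aged to match the later times. Every array read RNA of 2 rats pooled, from the third of the femur centred on the fracture with its callus, cortical bone and marrow. Because each age and time had 1 array, the 3 ages served as the replicates of a time and the 6 times as the replicates of an age. The labels call these arrays series 2, and the study's other arrays were not analysed here. The p-values rest only on the spread of these pooled samples that is left after time and age are fitted. That spread mixes differing time courses of the ages with variation between pools and arrays.

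Skeletal muscle meets a sudden demand for energy from phosphocreatine and from its own glycogen, before oxygen delivery can follow. Creatine kinase passes phosphate from phosphocreatine to ADP. Glycogen phosphorylase releases glucose phosphate from glycogen, phosphofructokinase commits it to glycolysis, and phosphoglycerate mutase and enolase act near the end of that pathway, where ATP is gained. Each enzyme exists in several forms encoded by separate genes, and the forms named here are those that mature muscle fibres use. In humans, inherited loss of PYGM or PFKM causes exercise intolerance with muscle glycogen storage.

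Muscle genes are known to be switched on by myogenic factors of the MyoD family, which bind the E-box. The promoter windows below are shown for the 4 enzyme genes that hold the E-box CAGCTG, a palindrome that reads the same on both strands. Each runs 5′ to 3′ on the gene's strand, with 250 bases before and 50 bases after the start of the RefSeq transcript in GRCr8, and capitals mark CAGCTG.
Ckm: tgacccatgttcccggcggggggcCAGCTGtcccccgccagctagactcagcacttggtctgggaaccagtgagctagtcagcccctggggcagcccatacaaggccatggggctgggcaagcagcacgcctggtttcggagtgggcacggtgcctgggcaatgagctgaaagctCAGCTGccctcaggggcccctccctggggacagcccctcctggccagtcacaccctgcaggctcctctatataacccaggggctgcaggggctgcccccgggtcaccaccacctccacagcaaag
Pygm: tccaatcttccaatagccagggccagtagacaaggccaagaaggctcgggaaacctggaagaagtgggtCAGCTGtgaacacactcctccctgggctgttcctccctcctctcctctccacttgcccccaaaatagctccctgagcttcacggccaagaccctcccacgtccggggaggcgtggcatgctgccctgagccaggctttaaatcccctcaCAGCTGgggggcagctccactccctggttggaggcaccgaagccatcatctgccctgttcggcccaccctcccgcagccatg
Pgam2: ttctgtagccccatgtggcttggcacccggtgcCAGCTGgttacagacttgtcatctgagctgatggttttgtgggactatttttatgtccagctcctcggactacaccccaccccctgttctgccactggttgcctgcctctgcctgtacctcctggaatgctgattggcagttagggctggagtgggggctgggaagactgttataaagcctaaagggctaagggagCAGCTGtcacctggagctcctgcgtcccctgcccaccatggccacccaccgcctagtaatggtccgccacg
Eno3: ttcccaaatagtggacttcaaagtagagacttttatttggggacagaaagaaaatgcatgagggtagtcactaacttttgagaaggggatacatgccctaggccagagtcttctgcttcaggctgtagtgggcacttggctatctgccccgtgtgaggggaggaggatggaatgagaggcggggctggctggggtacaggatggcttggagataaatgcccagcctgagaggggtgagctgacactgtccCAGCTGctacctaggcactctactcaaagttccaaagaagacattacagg
The windows lie at chr1:88189211-88189510 on the plus strand for Ckm, chr1:213119555-213119854 on the plus strand for Pygm, chr14:84897825-84898124 on the minus strand for Pgam2 and chr10:55868936-55869235 on the plus strand for Eno3.

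CAGCTG stood in 4 of the 5 enzyme windows, against 15.1% of all 33469 RefSeq promoter windows of the same 300 bases. Ckm, Pygm and Pgam2 each held 2 copies and Eno3 held 1, which began at its first transcribed base. The copy nearest the start began at position -75 in Ckm, -32 in Pygm and -21 in Pgam2. The Pfkm window, at chr7:131113849-131114148 on the plus strand, held no copy. Among 15 windows of 14 genes of fast muscle contraction 5 held CAGCTG, and among 11 windows of the 10 genes for other forms of the same enzymes 2 did, in Ckmt2 and Pygl. A second E-box, CACCTG on either strand, was found in Pgam2 alone of the 5 (18.8% of all windows), where it follows the second CAGCTG. The letters TATAAA on either strand were in Pgam2 alone as well (14.2% of all). Such matches describe letters and were not tested as binding sites.

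Ckm, muscle creatine kinase, gave some of the brightest signals on the arrays. In young rats its signal was 23840 with no fracture, 9505 at 3 days, 18300 at 1 week, 18388 at 2 weeks, 21992 at 4 weeks and 24840 at 6 weeks. In adult rats the series in the same order was 26365, 5764, 13525, 23994, 26270 and 20586. In older rats it was 23419, 5735, 11840, 19338, 24925 and 17044. The 3 arrays at 3 days were lowest and did not overlap any other time. The young array at 3 days kept 39.9% of the level of its own no-fracture array, the adult array 21.9% and the older array 24.5%. The Ckm probe set ranked between 1 and 242 of the probe sets on the 18 arrays, and whether its upper signals were limited by the scanner was not tested.

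Pygm, muscle glycogen phosphorylase, fell further. In young rats its signal was 5393 with no fracture, 1304 at 3 days, 4663 at 1 week, 5383 at 2 weeks, 4648 at 4 weeks and 7880 at 6 weeks. In adult rats it was 7492, 1122, 3913, 7786, 6596 and 7395 in that order. In older rats it was 14468, 941, 3018, 5049, 6776 and 7453. The older no-fracture array was the highest of the 18, and the older array at 3 days was the lowest. The dimmer Pygm probe set had the same low point, with 972, 1039 and 926 at 3 days in young, adult and older rats, against 3987, 3743 and 9120 with no fracture.

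Pfkm, the muscle subunit of phosphofructokinase, was read by 2 probe sets that did not agree. The leading one gave 3729, 1110, 3077, 1930, 3642 and 4016 in young rats from no fracture through 6 weeks. It gave 5726, 983, 2820, 3666, 3477 and 4171 in adult rats, and 8284, 932, 2617, 3101, 4490 and 3634 in older rats. All 3 arrays at 3 days lay below the other 15. The dimmer probe set gave 320, 286 and 271 at 3 days in young, adult and older rats, against 415, 383 and 303 with no fracture. At 1 week it stood at 718, 856 and 664 and at 2 weeks at 582, 1348 and 752, above all 3 no-fracture arrays, while the leading probe set stood below all 3. All Pfkm values below are from the leading probe set unless the dimmer one is named.

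Pgam2, muscle phosphoglycerate mutase, had the tightest values at 3 days, 196, 198 and 199 in young, adult and older rats. Its full series in young rats was 1491 with no fracture, 196 at 3 days, 1330 at 1 week, 1516 at 2 weeks, 1545 at 4 weeks and 1926 at 6 weeks. In adult rats the no-fracture signal was 1878, and the signals at 1, 2, 4 and 6 weeks were 952, 1743, 1627 and 1393. In older rats the no-fracture signal was 2202, followed at those weeks by 929, 1434, 1540 and 1251. The ages lay further apart at other times, as at 6 weeks, where the young array was highest and the older one lowest.

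Eno3, the muscle enolase also called beta-enolase, had the lowest mean of the 5 relative to no fracture at 3 days, although in adult rats Pgam2 kept 10.6%, less than Eno3. In young rats its signal was 3076 with no fracture, 395 at 3 days, 3037 at 1 week, 2701 at 2 weeks, 3686 at 4 weeks and 3442 at 6 weeks. In adult rats it was 4071, 458, 2113, 3160, 2098 and 3495 in the same order. In older rats it was 5863, 302, 1664, 3380, 3751 and 3849. The young array at 3 days kept 12.9% of its no-fracture level, the adult array 11.2% and the older array 5.15%.

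**Figure D1:**
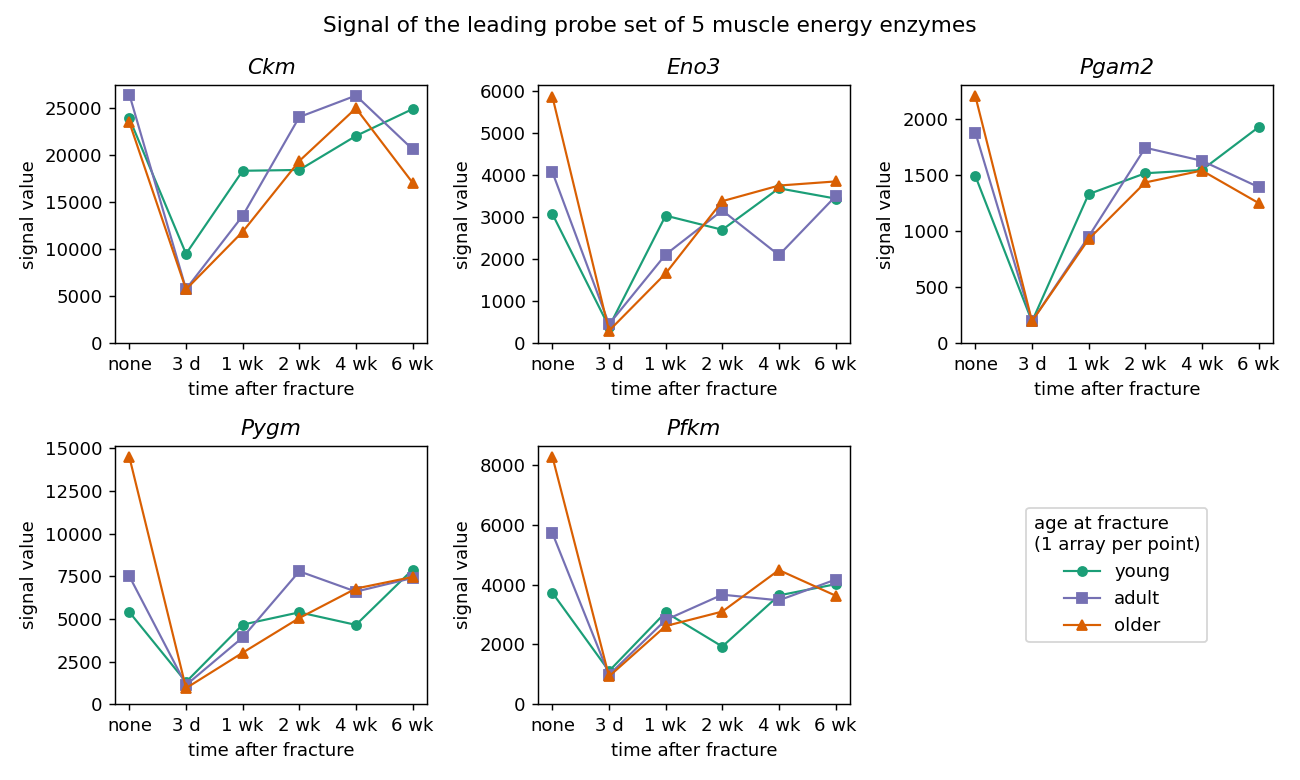
Signal value (vertical axis, linear from 0) of the leading probe set of Ckm, Eno3, Pgam2, Pygm and Pfkm against time after fracture (horizontal axis, none is no fracture), with 1 array per point and a line for each age. In every panel the 3 arrays at 3 days lie below all others, and for Pygm the older no-fracture array, at 14468, stands highest.

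The comparison of 3 days with no fracture asked how far these mRNA levels differed early after fracture. All 5 enzymes fell, and in none of them did the 3 arrays at 3 days overlap the 3 no-fracture arrays. In the whole table limma called 39.3% of probe sets in this comparison, 18.9% higher and 20.4% lower (adjusted p under 0.05 over all 8740 probe sets), and 25.4% of probe sets had all 3 arrays at 3 days below all 3 no-fracture arrays. Eno3 averaged 385 ± 78.5 at 3 days and 4340 ± 1410 with no fracture (SD, 3 arrays each), 11-fold lower, a log2 change of -3.46 (SE 0.30, limma adjusted p = 2e-05). Pgam2 averaged 198 ± 1.61 at 3 days and 1860 ± 356 with no fracture, 9.27-fold lower (log2 -3.21, SE 0.18, limma adjusted p = 3.2e-06). Pygm averaged 1120 ± 182 and 9120 ± 4750 at these times, a 7.52-fold fall (log2 -2.91, SE 0.32). For Pfkm the means were 1010 ± 91.7 and 5910 ± 2280, 5.58-fold lower (log2 -2.48, SE 0.26), and for Ckm 7000 ± 2170 and 24500 ± 1590, 3.61-fold lower (log2 -1.85, SE 0.20). The limma adjusted p of these last 3 lay between 4.6e-05 and 7e-05. The dimmer probe set of Pygm was called too (log2 -2.40, limma adjusted p = 0.00019), while that of Pfkm was not (log2 -0.32, limma adjusted p = 0.30).

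The median log2 change of the 5 enzymes at 3 days was -2.91, beside -0.10 over all 4736 genes. RNA quality, read as the 3′ to 5′ signal ratio of the actin controls, moved with the comparison, at 1.48 to 1.88 at 3 days and 2.10 to 2.61 with no fracture. With that ratio as a covariate all 5 enzymes were still called at 3 days, where 1161 probe sets of the table were. All 5 were also called without any 1 of the ages, where the table's count was 1742 to 2776. With a fit of only the 6 arrays compared 2 of 5 were called, Eno3 and Pgam2, where 902 probe sets of the table were. The limma adjusted p of the other 3 enzymes lay between 0.051 and 0.057.

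At 1 week all 5 enzymes were still below no fracture, without overlap of the groups, when limma called 35.8% of all probe sets and 17.8% lower, and 29.2% of probe sets had all 3 arrays at 1 week below all 3 no-fracture arrays. The log2 changes lay in a narrow band. Pygm stood at -1.14 (SE 0.32, limma adjusted p = 0.019), Pfkm at -0.99 (SE 0.26), Eno3 at -0.93 (SE 0.30), Pgam2 at -0.80 (SE 0.18) and Ckm at -0.78 (SE 0.20). The other 4 limma adjusted p lay between 0.0067 and 0.034. The median of the 5 was -0.93, beside -0.07 over all genes. Without the adult rats 0 of 5 were called, at log2 changes of -1.24 to -0.68, and without the older rats 0 of 5, at -0.67 to -0.48, while the whole table's count of 3126 probe sets became 1051 and 1189. All 5 were called without the young rats, where 2684 probe sets of the table were. With the actin ratio as a covariate 0 of 5 passed, with log2 changes of -1.01 to -0.61 and limma adjusted p of 0.088 to 0.33. The whole table's count became 976 in that fit. The ratio was 1.66 to 1.76 at 1 week and 2.1 to 2.61 with no fracture, so it moved with the comparison here too. Ckm alone lost its call under quantile normalization, at -0.22 (adjusted p = 0.48). By their dimmer probe sets Pygm was not called at 1 week (log2 -0.55, limma adjusted p = 0.20) and Pfkm was higher (log2 1.03, limma adjusted p = 0.0053).

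Compared with 3 days, the enzymes had recovered much of their level by then. All 5 were higher at 1 week than at 3 days, and limma called 3.5% of all probe sets in that comparison and 2.12% higher. Eno3 was 5.8-fold higher at 1 week than at 3 days (log2 2.54, SE 0.30, limma adjusted p = 0.0014) and Pgam2 5.33-fold higher (log2 2.41, SE 0.18, limma adjusted p = 0.00015). Pygm was 3.42-fold, Pfkm 2.82-fold and Ckm 2.11-fold higher, with limma adjusted p of 0.0093 to 0.015. No 1-week array overlapped a 3-day array in any of the 5, and 10.5% of all probe sets had all 3 arrays at 1 week above all 3 at 3 days.

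At 2 weeks the enzymes other than Pfkm could not be told from no fracture by limma, and at 4 and 6 weeks none of the 5 could. At 2 weeks 1 of 5 was called, where the table had 32.8% called and 16.8% lower. Pfkm averaged 2900 ± 886 at 2 weeks and 5910 ± 2280 with no fracture, 2.01-fold lower (log2 -1.0, SE 0.26, limma adjusted p = 0.012), and the groups did not overlap, as for 26.1% of all probe sets in that direction. This call was lost without the adult rats (log2 -1.18), without the older rats (-0.80) and with the actin ratio in the model (-0.81). The whole table's count of 2868 probe sets became 889, 884 and 653 in these fits. The dimmer Pfkm probe set was called in the opposite direction (log2 1.2, limma adjusted p = 0.0026). The other 4 had log2 values of -0.49 to -0.23. The 95% interval ran from -0.71 to 0.19 for Ckm, from -1.12 to 0.22 for Eno3, from -0.64 to 0.17 for Pgam2 and from -1.2 to 0.22 for Pygm, so that a fall of 1 log2 unit lay within the interval of Eno3 and of Pygm.

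At 4 weeks 0 of 5 enzymes were called by limma, where 21.2% of all probe sets were, and at 6 weeks 0 of 5, where 15.4% were. At an unadjusted p under 0.05 the counts were also 0 and 0. All 10 estimates were below zero, from -0.55 for Pfkm to -0.01 for Ckm at 4 weeks and from -0.51 for Pfkm to -0.14 for Pygm at 6 weeks. Left without the young rats, the fit called Pfkm at both times (log2 -0.80 at 4 weeks, limma adjusted p = 0.045, and -0.82 at 6 weeks, limma adjusted p = 0.048) and Pgam2 at 6 weeks (-0.62, limma adjusted p = 0.017). Against 3 days all 5 were higher at 2, 4 and 6 weeks, where limma called 6.14%, 12.6% and 20.2% of the table and 3.04%, 6.45% and 10% of it higher. At 6 weeks Eno3 was 9.47-fold and Pgam2 7.57-fold above 3 days, Pygm 6.81-fold, Pfkm 3.91-fold and Ckm 3.03-fold. The dimmer Pfkm probe set was not called against 3 days at 4 weeks (log2 0.76, limma adjusted p = 0.053) or at 6 weeks (log2 -0.17, limma adjusted p = 0.68). A fit of only the arrays of 6 weeks and 3 days called 0 of 5 enzymes, and 6 probe sets in the whole table. The comparisons with no fracture share the 3 no-fracture arrays, and those with 3 days share the 3 arrays of that time.

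The size of the trough and of the recovery relative to the no-fracture array of the same age differed among the ages in these single arrays. At 3 days the 5 enzymes kept 12.9% to 39.9% of that level in young rats, 10.6% to 21.9% in adult rats and 5.15% to 24.5% in older rats, with medians of 24.2%, 15.0% and 9.05%. At 1 week the young array stood at 76.8% to 98.7%, the adult array at 49.3% to 52.2% and the older array at 20.9% to 50.6%, and by its leading probe set each gene kept most in young and least in older rats. Ckm was close between adult and older rats, at 51.3% and 50.6%. At 6 weeks all 5 leading probe sets were above the no-fracture level in the young rats (104% to 146%) and all 5 below it in the adult rats (72.8% to 98.7%) and in the older rats (43.9% to 72.8%). The dimmer probe sets departed from this pattern. At 6 weeks the dimmer Pygm probe set stood at 141%, 157% and 72.3% in young, adult and older rats, and the dimmer Pfkm probe set at 45.7%, 85.2% and 93.0%. Each percentage is a ratio of 2 arrays and carries no replicate error.

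**Figure D2:**
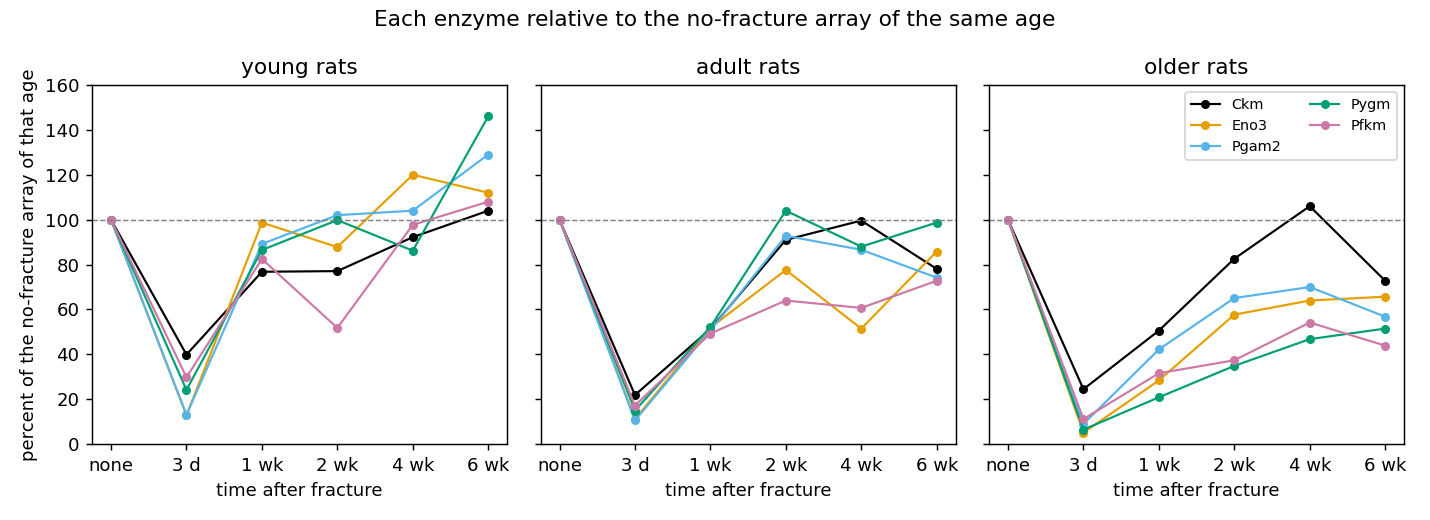
Signal of each enzyme as a percentage of the no-fracture array of the same age (vertical axis; the dashed line marks the no-fracture level) against time after fracture, in a panel for young, adult and older rats, with 1 array per point. At 6 weeks the older lines end between 43.9% and 72.8% and the young lines between 104% and 146%.

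Part of that ordering lay in the no-fracture arrays themselves. With no fracture 4 of the 5 enzymes ran older over adult over young, all but Ckm, an order that 11.1% of all probe sets shared. At 1 week all 5 leading probe sets ran young over adult over older, an order that 21.7% of all probe sets shared. With 1 array for each age at a time these orders are descriptions without a test. Over all 6 times 0 of 5 enzymes were called by limma between older and young rats, where 0.446% of probe sets were, 0 of 5 between adult and young rats, where 0.0801% were, and 0 of 5 between older and adult rats, where 0% were. The counts at an unadjusted p under 0.05 were 0 in all 3 comparisons of the enzymes, and 600 probe sets in the table between older and adult rats. The log2 difference of older minus young rats was 0.25 for Pfkm (95% interval -0.15 to 0.65), 0.12 for Pygm (-0.39 to 0.62), 0.03 for Eno3 (-0.44 to 0.50), -0.11 for Pgam2 (-0.39 to 0.18) and -0.28 for Ckm (-0.60 to 0.04). Differences between older and young rats within these bounds were not excluded by these arrays.

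Older and young rats were also compared within healing phases in a fit with age nested in phase, which leaves 4 residual degrees of freedom. At 1 and 2 weeks 0 of 5 enzymes were called, where 0% of the table was, and at 4 and 6 weeks 0 of 5, where 1.24% was, with 0 of 5 at an unadjusted p under 0.05 in both phases. Older minus young at 4 and 6 weeks was 0.23 for Pygm, 0.09 for Eno3, 0.08 for Pfkm, -0.18 for Ckm and -0.31 for Pgam2. At 1 and 2 weeks it was 0.23 for Pfkm and -0.36 to -0.27 for the other 4. The interaction with the no-fracture difference was negative for all 5 in both phases by their leading probe sets (0.58 and 0.75 by the dimmer Pfkm probe set). A negative value means that older rats stood lower relative to their own no-fracture array than young rats did. The interaction was largest for Pygm, with -1.78 at 1 and 2 weeks (SE 0.43, limma adjusted p = 0.15) and -1.19 at 4 and 6 weeks (SE 0.43, limma adjusted p = 0.24). Pygm was the 1 of 5 enzymes with an unadjusted p under 0.05 in either phase, where 15.8% and 18.3% of all probe sets had one. For the other 4 it ran from -1.2 for Eno3 to -0.25 for Ckm at 1 and 2 weeks. At 4 and 6 weeks it was -1.07 for Pfkm, -0.88 for Pgam2, -0.84 for Eno3 and -0.16 for Ckm. None passed after adjustment, in a table with 2.22% called at 1 and 2 weeks and 3.02% at 4 and 6 weeks. Both interactions take the same older and young no-fracture arrays as their base.

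The genes for other forms of the same enzymes gave a different picture at 3 days. Of 9 measured, 4 were higher, 2 lower and 3 not called, with a median log2 change of 0.37, where limma called 20% of all 4736 genes higher and 21.9% lower. Pfkl, the liver form of phosphofructokinase, had signals of 640, 774 and 515 at 3 days in young, adult and older rats, against 279, 229 and 201 with no fracture. It was 2.71-fold higher (log2 1.44, SE 0.18, limma adjusted p = 0.00013), with no overlap, and Pfkm, as given above, was lower on the same arrays. Pgam1, the brain form of the mutase, had 4744, 4943 and 6276 at 3 days, against 3606, 3641 and 3355 with no fracture, 1.5-fold higher (log2 0.58, SE 0.15, limma adjusted p = 0.0098). Its other probe sets differed, at log2 0.14 (limma adjusted p = 0.41) for one nearly as bright and 1.67 (limma adjusted p = 0.00017) for a dimmer one.

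Eno1, the enolase of most tissues, had 10338, 9268 and 8566 at 3 days in young, adult and older rats, against 7354, 7480 and 6476 with no fracture, 1.32-fold higher (log2 0.40, SE 0.12, limma adjusted p = 0.024). Its dimmer probe set gave a larger difference, 7.58-fold (log2 2.92, SE 0.35). Pygb, the brain glycogen phosphorylase, was 1.29-fold higher by its leading probe set (log2 0.37, SE 0.11, limma adjusted p = 0.023). A dimmer Pygb probe set gave log2 2.19 (limma adjusted p = 9.2e-05). Another gave log2 0.95 (limma adjusted p = 0.034), with a mean of 12.8 with no fracture, under the floor. Pygl, the liver glycogen phosphorylase, moved with Pygm in direction, with 259, 141 and 106 at 3 days, against 433, 435 and 491 with no fracture (log2 -1.53, SE 0.22). Pfkp, the platelet phosphofructokinase, was not called by its leading probe set (log2 0.27, SE 0.23) and was higher by its dimmer one (log2 1.38, limma adjusted p = 0.011).

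Among the creatine kinases, Ckmt2, the mitochondrial form of striated muscle, was lower along with Ckm. Its signals were 319, 355 and 447 at 3 days in young, adult and older rats, against 3830, 2562 and 3984 with no fracture, a 9.17-fold fall (log2 -3.20, SE 0.26, limma adjusted p = 1.5e-05). Ckb, the brain creatine kinase, had 7334, 2887 and 2436 at 3 days, against 2583, 2385 and 2320 with no fracture, and was not called (log2 0.62, SE 0.43). Its dimmer probe set was not called either (log2 1.62, SE 0.62, limma adjusted p = 0.059). The young Ckb array stood far above the other 2 ages at 3 days. Ckb then reached 12498, 7856 and 9007 at 2 weeks, when Ckm stood at 18388, 23994 and 19338 after its trough. Ckmt1, the mitochondrial form of other tissues, was dim throughout and not called at 3 days (log2 -0.62, SE 0.28). The level of Eno2, the neuronal enolase, was not analysed here.

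**Figure D3:**
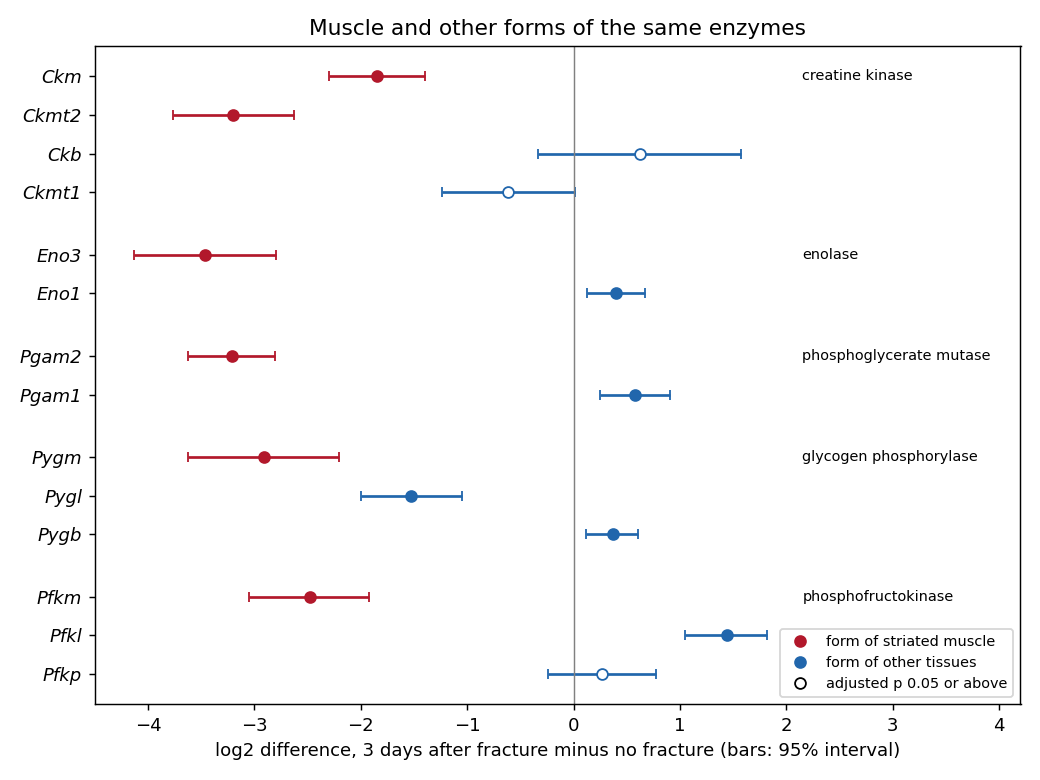
Log2 difference of 3 days after fracture minus no fracture (horizontal axis) for the forms of each enzyme, with points at the limma estimate, bars for its 95% interval and open points for an adjusted p of 0.05 or above. The forms of striated muscle (red) lie between -3.46 and -1.85. Of the other forms (blue), Eno1, Pgam1, Pygb and Pfkl lie between 0.37 and 1.44 and Pygl lies at -1.53. The open points Ckmt1, Pfkp and Ckb lie at -0.62, 0.27 and 0.62.

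Genes of the same pathways were read from lists. Those of glycolysis, glycogen, and phosphagen and adenylate genes also hold the other forms given above, which are counted again here. Of 17 measured glycolysis genes at 3 days, 7 were lower, 4 higher and 6 not called. Over all genes 21.9% were lower and 20% higher, and the share of higher glycolysis genes, 23.5%, was near the latter. The median log2 change of the list was 0.18, beside -0.10 over all genes. The lower ones with the largest changes were Pfkfb1, a bifunctional regulator of phosphofructokinase (log2 -3.17), Ldhb, the heart subunit of lactate dehydrogenase (log2 -2.60), Ldhc, its testis form (log2 -2.56), and Pfkfb2 (log2 -2.06). The signals of Ldhc and Pfkfb2 at 3 days averaged 6.8 and 21.5, near or under the floor of 20 set before taking logs, so the size of their changes depends on it. The 4 higher genes were Aldoc, brain aldolase, at 1.54, which was named after its value was seen, and Pfkl, Pgam1 and Eno1.

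Of 10 glycogen genes 5 were lower, 1 higher and 4 not called at 3 days, beside 21.9% of all genes lower and 20% higher. Phkg1, the muscle catalytic subunit of phosphorylase kinase, which switches glycogen phosphorylase on, fell by 1.65 on the log2 scale (SE 0.20), and Phka1, the muscle regulatory subunit, fell by 1.56 (SE 0.33). Pgm1, which turns glucose 1-phosphate into glucose 6-phosphate, fell by 1.18 (SE 0.21). The higher gene was Pygb. Of 8 phosphagen and adenylate genes 2 were lower (25%) and 1 was higher (12.5%), a share of lower genes near the 21.9% of all genes. The lower ones were Ckmt2 and Ampd1, the muscle AMP deaminase (log2 -0.79), and the higher one Ak3, a mitochondrial adenylate kinase (log2 0.67).

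Among 12 genes of fuel transport and shuttles 5 were lower and 1 was higher at 3 days, beside 21.9% of all genes lower and 20% higher. Slc2a4, the insulin-responsive glucose transporter GLUT4, was 6.51-fold lower (log2 -2.70, SE 0.27, limma adjusted p = 3.4e-05). The 1 gene that rose was Slc2a1, the glucose transporter GLUT1 of many cell types, 4.23-fold higher (log2 2.08, SE 0.34, limma adjusted p = 0.00069). Fbp2, the muscle fructose bisphosphatase, fell by 2.36 on the log2 scale and Got1, of the malate-aspartate shuttle, by 1.26. At 6 weeks 2 of 17 glycolysis genes and 1 of 10 glycogen genes were lower, near the 8.78% of all genes that were lower then.

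**Figure D4:**
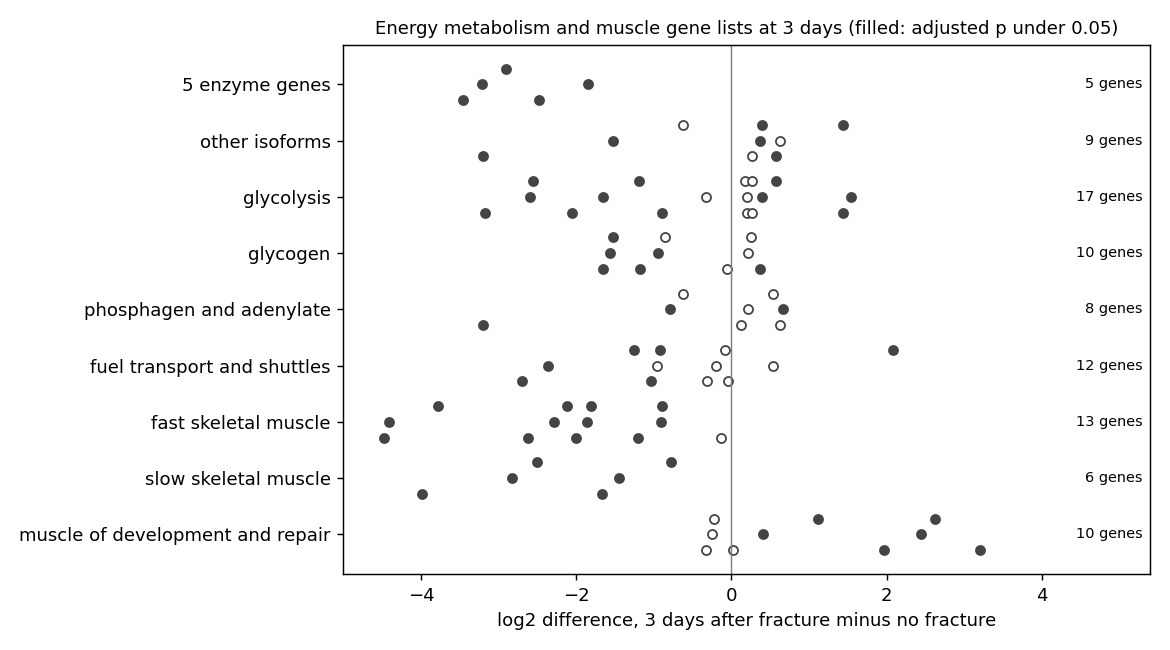
Log2 difference of 3 days after fracture minus no fracture (horizontal axis) for each measured gene of the energy metabolism and muscle lists (rows), 1 point per gene, filled where the limma adjusted p is under 0.05. The 5 enzyme genes and 6 slow muscle genes all lie below 0, and the 10 genes of muscle development and repair include 6 filled points above 0.

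The tissue is labelled as femur, yet markers of skeletal muscle were bright on all arrays and moved with the enzymes. The summed signal of 13 fast muscle genes was 30842 to 41433 at 3 days and 112639 to 133348 with no fracture, and no marker of that list was under the floor on all arrays of a time. At 3 days 12 of the 13 were lower, beside 21.9% of all genes, and the median log2 change was -2.0. The largest falls were those of Myh2, a fast myosin heavy chain (log2 -4.48), Pvalb, parvalbumin (-4.41), Casq1, calsequestrin (-3.78), and Atp2a1, the fast calcium pump (-2.62). The exception was Myh1, at -0.13. All 6 slow muscle genes were lower too, with a median of -2.09. These were led by Myl2 (-3.99), Myl3 (-2.83), Myh7 (-2.50) and Tnni1 (-1.67), which are myosin light chains, a myosin heavy chain and a troponin. Their summed signal was 5655 to 11963 at 3 days and 25401 to 48808 with no fracture.

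The median enzyme kept 24.2%, 15.0% and 9.05% of its no-fracture level at 3 days in young, adult and older rats, beside 30.4%, 25.3% and 18.7% for the median fast muscle gene. At 1 week the median enzyme stood at 86.5%, 51.3% and 31.6%, beside 102%, 62.9% and 63.0% for the median fast muscle gene. The difference between the enzymes and the fast muscle genes was not tested. Markers of other tissues moved as well, where 21.9% of all genes were lower and 20% higher at 3 days. Red cell precursor genes summed to 4922 to 11507 at 3 days and 46308 to 99179 with no fracture, with 6 of 6 lower, and neutrophil genes to 877 to 12838 and 35689 to 49934, with 3 of 3 lower. Cartilage genes summed to 2209 to 2651 at 3 days and 160 to 735 with no fracture, with 2 of 5 higher, and osteoblast genes to 43462 to 56295 and 16696 to 59267, with 3 of 5 higher. In these bulk samples fewer muscle fibres in the segment and less of each mRNA per fibre cannot be told apart, and the part of tissue makeup in the fall of the enzymes was not tested.

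Genes of muscle development and repair followed another course. At 3 days, beside 20% of all genes higher and 21.9% lower, 6 of 10 were higher and 0 lower. They were led by Myog, the myogenic factor myogenin (log2 3.20), Chrna1, a subunit of the acetylcholine receptor (2.62), Myl4, an embryonic light chain (2.44), and Ncam1, a cell adhesion molecule (1.97). At 1 week 9 of 10 were higher, beside 18.4% of all genes, and their summed signal was 13933 to 24053, against 3694 to 5300 with no fracture. At that time their sums ran young under adult under older (13933, 20512 and 24053), the reverse of the order in the 5 enzymes. Of all probe sets 20.5% rose in that order at 1 week, and with 1 array for each age the order was not tested. At 1 and 2 weeks 0 of the 10 genes were called between older and young rats, as were 0% of all genes. At 6 weeks 1 of 10 was higher, beside 8.74% of all genes.

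**Figure D5:**
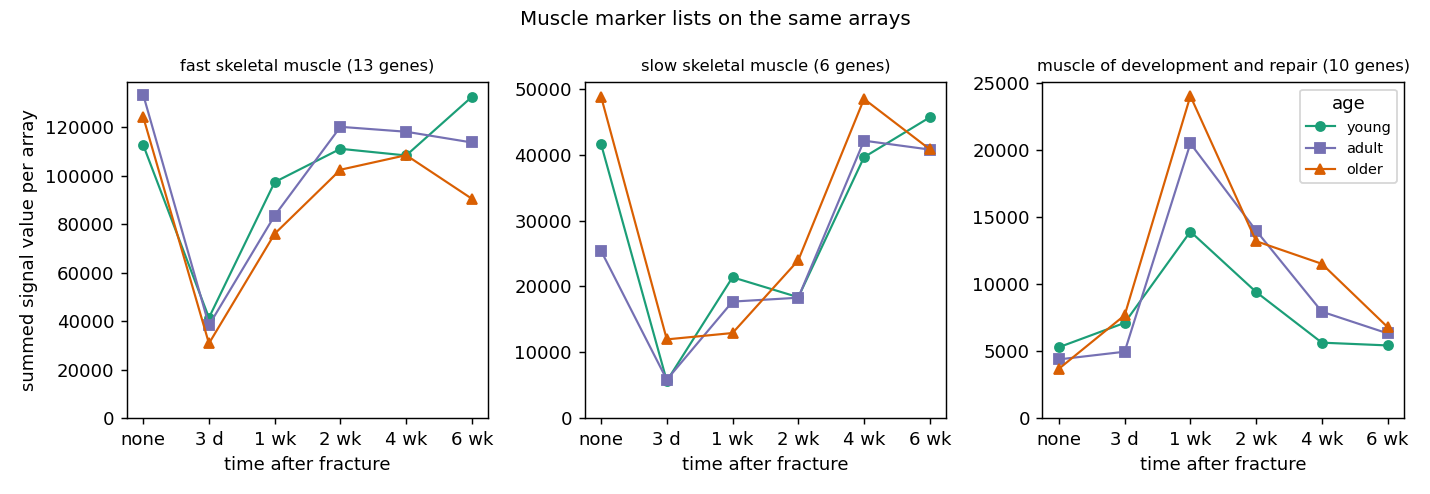
Summed signal value per array (vertical axis, from 0) of fast muscle, slow muscle and muscle development and repair genes against time after fracture, with a line for each age. The fast muscle sums lie at 30842 to 41433 at 3 days and the repair sums peak at 1 week, at 13933 to 24053.

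The 5 enzymes varied together over the 18 arrays. Pearson's r of log2 signal lay between 0.888 (Ckm with Pfkm) and 0.971 (Eno3 with Pgam2) over the 10 pairs, and between 0.582 and 0.890 over the 15 arrays without 3 days. These arrays share their scaling and the trough at 3 days, so the values are a description. The genes most like the mean of the 5 enzymes, among 2480 with a mean signal of 200 or more, were Tnni2, a fast troponin (r = 0.977 over 18 arrays), Cox6a2, the muscle subunit of cytochrome oxidase (0.974), and Hspb6, a small heat shock protein of muscle (0.973). They were followed by Rpl3l, a ribosomal protein of muscle (0.972), Atp2a1 (0.972), Ldb3, of the Z-disc (0.969), Pvalb (0.967), Pkia, an inhibitor of protein kinase A (0.965), Tnnc2, a fast troponin (0.963), and Cox8b, another cytochrome oxidase subunit (0.957). Of the forms of the same enzymes Ckmt2 ranked at 30 (r = 0.899), whereas Eno1 and Pfkl had r of -0.772 and -0.765.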

How the data were processed

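The table deposited by the authors holds intensity, as the signal value of Affymetrix Microarray Suite 5.0, with each array scaled to 500. The mean of each array without its extreme 2% was checked and lay at 500.7 to 500.8, which makes every signal relative to the rest of its array. Of 8799 probe sets 59 controls were left out, and 8740 were tested. Platform annotation names 1 gene for 7006 probe sets, several for 308 and none for 1426. The table had 0 unused columns.

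Signals under 20 were set to 20 (12.2% to 20.1% of probe sets per array) and taken as log2. limma 3.58.1 (R 4.3.3) fitted time and age as additive terms (10 residual and 0.949 prior degrees of freedom), with a trend in the empirical Bayes step. A second fit nested age in phase (4 residual and 0.865 prior). Adjusted p are Benjamini-Hochberg values over all 8740 probe sets, called under 0.05. Means ± SD are of the signals before the floor. The fits were tested on simulated data.

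Age is a term in the main fit as the replicate block, since a replicate number stands for an age. The number of arrays limits the precision, since signals have no depth. The enzymes and gene lists were chosen with earlier results of these data known. Named are the 5 enzymes, their other forms, up to 4 called genes per list with the largest change at 3 days, and the 10 genes most like the enzymes. Alternatives were other normalizations, floors, filters and tests, the actin ratio as a covariate, dimmer probe sets, and leaving out ages or times. Promoter windows come from RefSeq (GRCr8) and were read with Python 3.11.15, all 5 enzymes matching by symbol.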

Additional observations from a re-analysis of the deposited data

Results flagged for a closer look

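For Eno3 and Pgam2 the older and the young rats moved to opposite sides of their own no-fracture array at 4 and 6 weeks. Both older arrays lay below it, at 64.0% and 65.7% for Eno3 and 70.0% and 56.8% for Pgam2. Both young arrays lay above it, at 120% and 112% for Eno3 and 104% and 129% for Pgam2. The test of the difference was the limma interaction of older minus young rats with the no-fracture difference. It gave -0.84 for Eno3 (SE 0.59, limma adjusted p = 0.56) and -0.88 for Pgam2 (SE 0.38, limma adjusted p = 0.33), and neither passed.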

How the results depend on the processing

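At 3 days all 5 enzymes stayed called under every alternative except the fit of only the 6 arrays compared, which called 2, and the dimmer Pfkm probe set, which was not called. That fit called 0 enzymes at 1 and 2 weeks, where it called 356 and 0 probe sets in the whole table. Between 6 weeks and 3 days it called 0 enzymes and 6 probe sets in the whole table. At 1 and 2 weeks the count was 0 with the actin ratio as a covariate, where 976 and 653 probe sets were called. It was also 0 by a t test of log2 signal between the times, with the ages as replicates and no age term. That t test was cut at p under 0.005, where it called 1107 and 814 probe sets. After Benjamini-Hochberg it called 1400 and 745. Between 6 weeks and 3 days the t test called 4 enzymes. Leaving out 1 age gave 0 to 5 called at 1 week, 0 to 1 at 2 weeks, 0 to 1 at 4 weeks and 0 to 2 at 6 weeks. The whole table's counts in these fits were 1051 to 2684, 884 to 2458, 37 to 2011 and 46 to 1636 in that order. Without the replicate block the counts were 5 at 3 days, 5 at 1 week, 1 at 2 weeks and 0 later, and no call of an enzyme changed. The whole table's count at 3 days, 3437 probe sets, became 1161 with the actin ratio and 902 in the fit of the compared arrays.

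Single enzymes changed sign as follows, in log2, and the cause was not tested. The dimmer Pfkm probe set gave 1.03 at 1 week, 1.2 at 2 weeks and 0.44 at 4 weeks against no fracture, and -0.17 at 6 weeks against 3 days. The dimmer Pygm probe set gave 0.23 at 6 weeks. Quantile normalization put Ckm at 0.18 at 2 weeks, 0.28 at 4 weeks and 0.06 at 6 weeks, at 0.22 for older against young at 4 and 6 weeks, and at 0.07 for that interaction. Leaving out 1 age gave Pygm -0.76 to 0.03 at 2 weeks and -0.49 to 0.26 at 6 weeks, highest without the older rats, and Ckm -0.06 to 0.04 at 4 weeks, highest without the young rats. Leaving out 1 time gave, for older against young, Eno3 -0.15 to 0.21 and Pygm -0.15 to 0.26, both lowest without the no-fracture arrays, and Eno3 -0.03 without 2 weeks. The no-fracture arrays alone gave Pgam2 0.56. For adult against young, leaving out 1 time gave Ckm -0.21 to 0.02, Eno3 -0.18 to 0.07 (0.01 without 1 week) and Pgam2 -0.13 to 0.03, and the no-fracture arrays alone gave 0.15, 0.40 and 0.33.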
